A study of Mus musculus with 24 samples.

Results

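The genes described here are 10 that encode parts of the von Hippel-Lindau (VHL) and cereblon ubiquitin ligases, the machinery that bivalent degraders borrow, together with the subunits of hypoxia-inducible factor (HIF), the best known substrate of the VHL ligase. They are *Vhl*, *Cul2* and *Rbx1* of the VHL ligase, *Crbn*, *Ddb1*, *Cul4a* and *Cul4b* of the cereblon ligase, and the HIF subunit genes *Hif1a*, *Epas1* and *Arnt*. Members were taken by gene name from the 49315 genes counted, although the genes were proposed with earlier results of these data known, and all 10 were among the 16070 genes that passed the filter on low counts. RNA was sequenced from MS03 cells, an immortalized murine Schwann cell (SC) line that was made by Cre infection of *Nf2* flox/flox cells and is labelled *Nf2*-/- in every group, the DMSO group included. Cells received DMSO alone, 1 µM of a FAK kinase inhibitor (defactinib, VS-4718, GSK2256098 or IN10018, which is also called ifebemtinib), 1 µM PROTAC FAK degrader 1, 0.1 µM GSK215 or 0.1 µM BSJ-04-0146, the last 3 being FAK-targeting PROTACs. Exposure was 24 hours and each of the 8 groups had 3 replicates, which makes 24 libraries of 1 cell line. The labels call the replicates biological without saying whether cultures were separate, so p-values measure the spread between these samples.

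A cullin-RING ligase is built on a cullin scaffold, which holds at one end a RING protein that brings in the ubiquitin-charged enzyme and at the other an adaptor with a substrate receptor. In the VHL ligase the scaffold is CUL2, the RING protein RBX1, the adaptor elongin B and elongin C, and the receptor VHL. In the cereblon ligase the scaffold is CUL4A or CUL4B, the adaptor DDB1 and the receptor cereblon, with RBX1 again as the RING protein. A PROTAC joins a ligand for a target protein to a ligand for such a receptor, so that the target is ubiquitinated and degraded. Which ligase each PROTAC of the study recruits is not given in the sources used here, and no compound is matched to a ligase in what follows. In oxygenated cells, prolyl hydroxylases mark the HIF alpha subunits HIF-1alpha (*Hif1a*) and HIF-2alpha (*Epas1*) for capture by VHL, and an alpha subunit that escapes pairs with ARNT to activate target genes. HIF activity is set mainly by protein stability, which RNA counts do not measure.

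Total counts ran from 14472462 to 27449516 per library, and every PROTAC library held fewer counts than every DMSO or kinase inhibitor library. *Nf2* had 2360 to 5066 counts per library, but counts per gene cannot show an exon deletion, so the genotype could not be checked from them. *Ptk2*, which encodes FAK, lay at 77.4 to 102 CPM (normalized counts, scaled to a common library size), and its RNA is not the protein that the PROTACs remove. Of 11 SC markers, 8 averaged over 1 CPM, while *S100b*, *Gfap* and *Egr2* were at or near 0. The sum of the 11 was 78.9 to 82.5 CPM with DMSO, 308.5 to 323 CPM with GSK215 and 287 to 314 CPM with BSJ-04-0146. It was 153 to 170 CPM with VS-4718 and 83.8 to 117 CPM with the other 4 drugs, so that it was above DMSO in every drug library, the groups with lower *Hif1a* or HIF target RNA included. Single markers did not all follow the sum. Of 10 tested, 4 were higher and 3 lower with PROTAC FAK degrader 1 (66.8% of all tested genes changed), and 1 higher and 1 lower with IN10018 (13.3%). With each other drug 7 to 9 were higher and 0 lower, where 12.5% to 54.7% of all genes changed. All 4 endothelial and all 4 neuronal markers were under 1 CPM, *Ptprc* and *Adgre1* of macrophages had 0 or 1 count per library, and the fibroblast gene *Lum* had none. The summed macrophage list, mostly *Cd68*, was 3.71 to 4.08 CPM with DMSO, 11.2 to 12.0 CPM with PROTAC FAK degrader 1, 7.84 to 9.34 CPM with BSJ-04-0146, 6.2 to 7.88 CPM with GSK215 and 3.79 to 6.17 CPM with the kinase inhibitors. The fibroblast list, mostly *Col1a1*, was 395 to 414 CPM with DMSO and 291 to 298 CPM with PROTAC FAK degrader 1. It was 361 to 393 CPM with BSJ-04-0146, 383 to 419 CPM with IN10018, and 428 to 515 CPM with GSK215 and the other 3 kinase inhibitors, these last 4 groups lying above DMSO in every library. In these bulk samples a change in the share of cells and a change in RNA per cell cannot be told apart, and the part of depth and of the marker sums in the results below was not tested.

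On the scale of CPM per kilobase of exon (RPKM), which allows levels of different genes to be compared, *Ddb1* was by far the most abundant member in DMSO-treated cells, at 204.4 ± 1.97 RPKM (SD, n = 3), and *Epas1* the least, at 1.00 ± 0.0777 RPKM (SD, n = 3). DDB1 also serves as the adaptor of many other CUL4 receptors and in DNA repair. For the other scaffold and RING genes, *Cul2* lay at 15.9 ± 0.412, *Rbx1* at 18.6 ± 0.793, *Cul4a* at 23.1 ± 0.644 and *Cul4b* at 25.3 ± 0.245 RPKM. The receptor genes were lower than their scaffolds, at 12.2 ± 0.688 RPKM for *Vhl* and 4.29 ± 0.0499 RPKM for *Crbn*. Of the HIF subunits, *Hif1a* stood at 30.8 ± 0.297 RPKM and *Arnt* at 9.68 ± 0.109 RPKM. Exon lengths were those of the union of annotated exons, so these levels carry any error in which transcripts the cells use. With the length of the longest transcript instead, the DMSO means became 17.5 RPKM for *Cul2*, 31.7 for *Rbx1*, 39.7 for *Cul4a* and 29.2 for *Cul4b*. They became 10.3 for *Crbn*, 17.9 for *Arnt*, 38.4 for *Hif1a* and 13.1 for *Vhl*. Several members thus changed places. *Cul4a* passed *Cul4b* and *Hif1a*, *Rbx1* passed *Cul4b*, and *Arnt* passed *Vhl* and *Cul2*, while *Ddb1* stayed the highest and *Epas1* the lowest.

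In GENCODE M21 on GRCm38, *Vhl* (ENSMUSG00000033933) lies at chr6:113623959-113631633 on the plus strand and *Crbn* (ENSMUSG00000005362) on the same chromosome at chr6:106780201-106800077 on the minus strand. *Cul2* (ENSMUSG00000024231) lies at chr18:3382988-3436377, *Rbx1* (ENSMUSG00000022400) at chr15:81466296-81476369, *Ddb1* (ENSMUSG00000024740) at chr19:10605327-10629819 and *Cul4a* (ENSMUSG00000031446) at chr8:13105621-13147940, all on the plus strand, while *Cul4b* (ENSMUSG00000031095) lies at chrX:38533274-38576196 on the minus strand. The HIF subunit genes *Hif1a* (ENSMUSG00000021109, chr12:73901375-73947530), *Epas1* (ENSMUSG00000024140, chr17:86753700-86833410) and *Arnt* (ENSMUSG00000015522, chr3:95434388-95497240) are all on the plus strand. Counts were of whole genes, so single exons were not separated. Exons of *Crbn* share 144 bases with *Trnt1*, exons of *Ddb1* 328 bases with *Tkfc*, and exons of *Hif1a* 330 bases with *Gm15283*, in each case on opposite strands, and exons of *Hif1a* share a further 148 bases with *Gm49321* on the same strand. The strand setting of the counting is not given in the sources used here, so reads from these stretches could have been counted for either gene or for neither.

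Each drug was compared with the same 3 DMSO libraries, so the 7 comparisons are not independent of each other. The kinase inhibitors changed few of the 10 genes. Defactinib lowered 3 (*Vhl*, *Crbn* and *Hif1a*) where 22.4% of all tested genes changed, VS-4718 changed 4 (*Ddb1* and *Cul4a* higher, *Vhl* and *Hif1a* lower) against 39.2% of all genes, GSK2256098 lowered 2 (*Cul4b* and *Hif1a*) against 12.5%, and IN10018 raised 1 (*Vhl*) against 13.3%. The counts with defactinib, VS-4718 and GSK2256098 moved when 1 replicate was left out, as given at the end. The PROTACs changed more than the kinase inhibitors, both among the members and among all genes. PROTAC FAK degrader 1 changed 6 of 10, with *Vhl*, *Crbn*, *Cul4a* and *Arnt* higher and *Ddb1* and *Cul4b* lower, where 66.8% of all genes changed. GSK215 changed 7, with *Epas1* higher and *Vhl*, *Cul2*, *Ddb1*, *Cul4a*, *Cul4b* and *Hif1a* lower, against 54.7% of all genes. BSJ-04-0146 also changed 7, with *Rbx1* and *Epas1* higher and *Vhl*, *Cul2*, *Ddb1*, *Cul4b* and *Hif1a* lower, against 54.6%. Each count lies within 2 genes of what the background share of 10 genes would give, and the median size of their log2 fold changes was below that of all tested genes for every drug, for example 0.20 against 0.412 with PROTAC FAK degrader 1 and 0.211 against 0.28 with BSJ-04-0146.

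**Figure D1:**
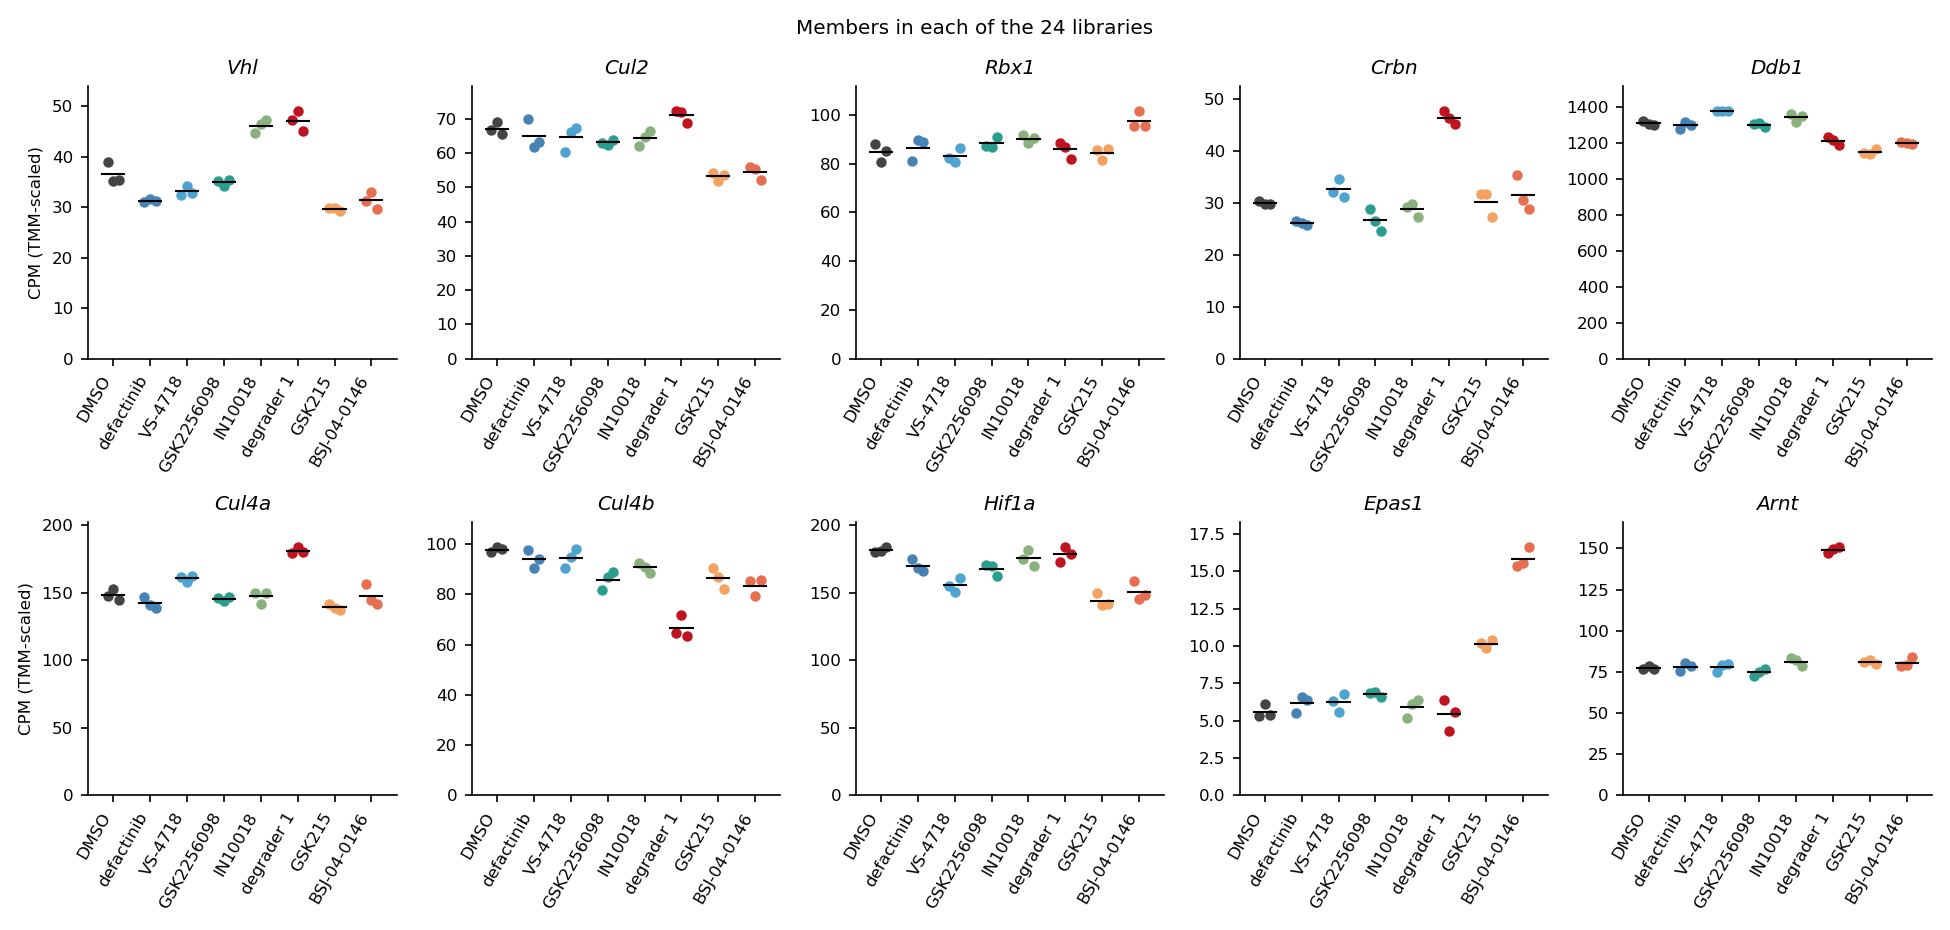
Expression of the 10 genes in each of the 24 libraries, in TMM-scaled CPM on an axis from 0 in each panel, by treatment; points are libraries and horizontal lines group means. *Arnt* and *Crbn* stand highest with PROTAC FAK degrader 1 and *Epas1* with BSJ-04-0146, whereas *Ddb1* stays between 1138 and 1379 CPM throughout.

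**Figure D2:**
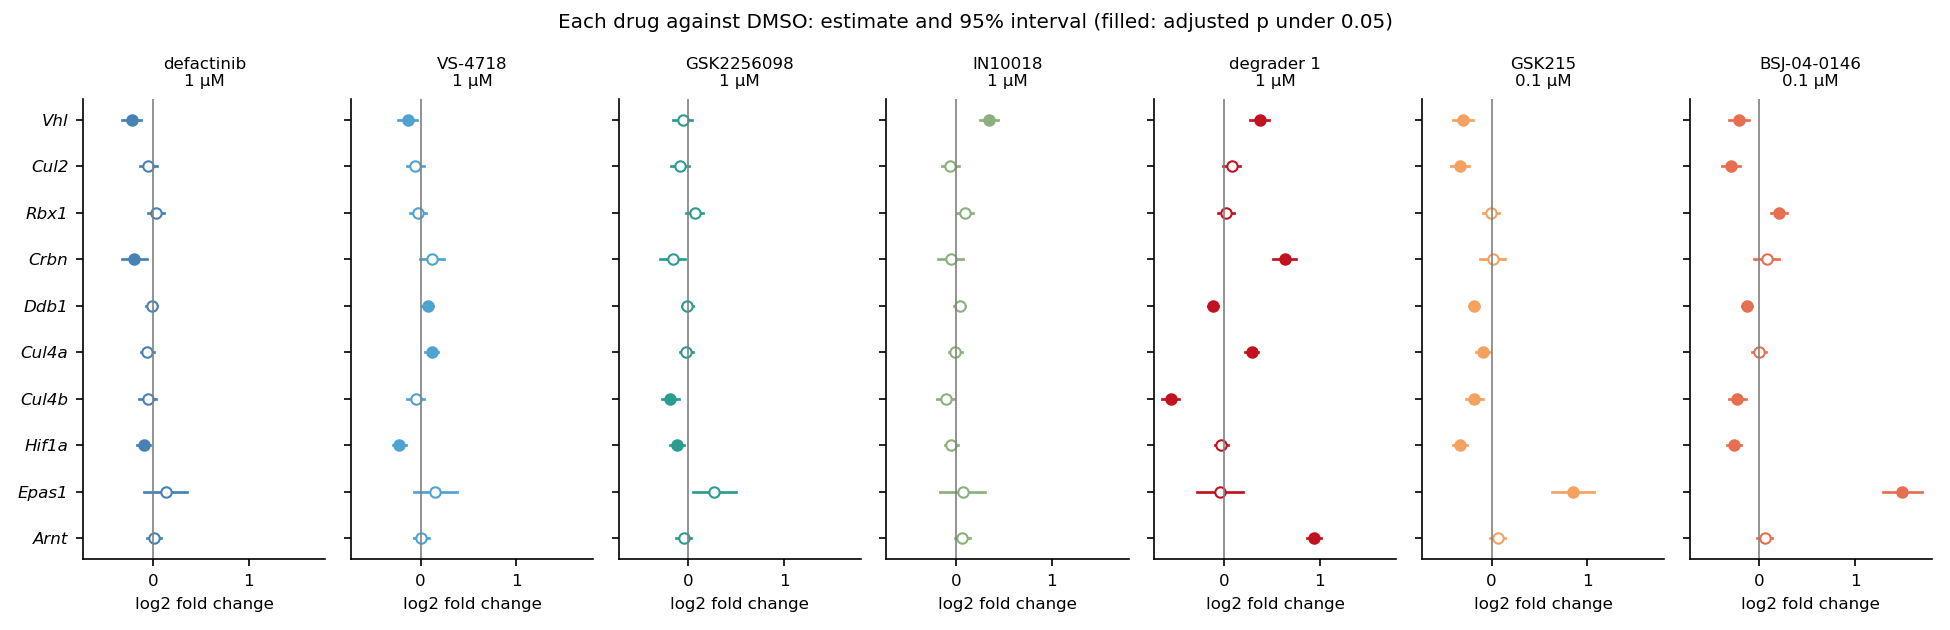
Log2 fold change of each gene for each drug against DMSO, from the edgeR fit of all 24 libraries, with 95% confidence intervals and 3 libraries per group; filled points have an adjusted p under 0.05. The widest changes are *Epas1* with BSJ-04-0146 (1.49) and GSK215 (0.85), *Arnt* with PROTAC FAK degrader 1 (0.95), and *Crbn* (0.64) and *Cul4b* (-0.56) with the same PROTAC.

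*Vhl*, the substrate receptor of the VHL ligase, was the member that most drugs moved, with an adjusted p under 0.05 for 6 of 7, in both directions. Its DMSO libraries held 38.9, 35.2 and 35.5 CPM. With PROTAC FAK degrader 1 they held 47.4, 49.1 and 45.1 CPM and with IN10018 44.7, 46.5 and 47.2 CPM, so that all 6 of these libraries lay above all 3 DMSO libraries. *Vhl* was 29.5% higher with PROTAC FAK degrader 1 (log2 fold change 0.37 ± 0.047, adjusted p = 6.3e-09) and 26.6% higher with IN10018 (log2 fold change 0.34 ± 0.047, adjusted p = 2.54e-06). The opposite was seen with GSK215, whose libraries held 29.8, 29.8 and 29.3 CPM, 18.8% below DMSO (log2 fold change -0.30 ± 0.051, adjusted p = 4.14e-06). BSJ-04-0146 gave 31.4, 33.1 and 29.7 CPM (log2 fold change -0.21 ± 0.051, adjusted p = 0.000469) and defactinib 31.0, 31.7 and 31.2 CPM (log2 fold change -0.22 ± 0.049, adjusted p = 0.000828). None of the libraries of these 3 drugs reached the lowest DMSO library. VS-4718 gave 32.4, 34.3 and 32.8 CPM, also all below DMSO but by less (log2 fold change -0.14 ± 0.048, adjusted p = 0.0206), a call that was lost without DMSO replicate 1 (-0.10, adjusted p = 0.127) or VS-4718 replicate 1 (-0.13, adjusted p = 0.06). GSK2256098, at 35.1, 34.3 and 35.5 CPM, overlapped DMSO (difference -0.06, 95% CI -0.16 to 0.04). When libraries were scaled by their totals alone, which put the median of all genes at 0.14 for GSK215 and 0.13 for BSJ-04-0146 in place of 0.021 and 0.018, some *Vhl* results changed. The *Vhl* value for GSK215 was -0.18, adjusted p = 0.00286, and the *Vhl* calls for BSJ-04-0146 (-0.11, adjusted p = 0.0715) and VS-4718 (-0.10, adjusted p = 0.093) were lost.

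*Cul2*, the scaffold of the VHL ligase, was lower with the PROTACs used at 0.1 µM. The DMSO libraries held 66.7, 69.0 and 65.6 CPM, the GSK215 libraries 54.2, 51.9 and 53.6 CPM and the BSJ-04-0146 libraries 55.9, 55.2 and 52.2 CPM. All 6 PROTAC libraries lay below every other library of the series. The decreases were 20.7% with GSK215 (log2 fold change -0.33 ± 0.047, adjusted p = 9.58e-08) and 18.8% with BSJ-04-0146 (log2 fold change -0.30 ± 0.047, adjusted p = 7.37e-07), or -0.21, adjusted p = 0.000194 and -0.19, adjusted p = 0.000594 on library totals alone. With PROTAC FAK degrader 1, at 72.3, 72.0 and 68.6 CPM, the highest group mean of the 8, the difference from DMSO was 0.08 (95% CI -0.01 to 0.17, adjusted p = 0.104), which was called only on library totals alone (0.16, adjusted p = 0.00148). No kinase inhibitor passed the test for *Cul2*.

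*Rbx1*, the RING protein that both ligases share, varied least of the 10, by 1.17-fold between its lowest and highest group means. Its DMSO libraries held 87.9, 80.8 and 85.1 CPM and the BSJ-04-0146 libraries 95.5, 102 and 95.4 CPM, the only group clear of all others. BSJ-04-0146 thus raised *Rbx1* by 15.4% (log2 fold change 0.21 ± 0.042, adjusted p = 5.95e-05, and 0.32 on library totals alone). GSK215, at 85.5, 81.5 and 85.9 CPM, overlapped DMSO (difference -0.00, 95% CI -0.09 to 0.08), although on library totals alone it was called higher (0.12, adjusted p = 0.0142), as was PROTAC FAK degrader 1 (0.11, adjusted p = 0.0216).

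Of the elongins, which link VHL to CUL2, *Elob* was higher with VS-4718 (log2 fold change 0.32, adjusted p = 4.82e-06) and BSJ-04-0146 (log2 fold change 0.32, adjusted p = 3.79e-06). *Eloc* was higher with VS-4718 (0.20, adjusted p = 1.72e-05) and IN10018 (0.12, adjusted p = 0.0207) and lower with PROTAC FAK degrader 1 (-0.27, adjusted p = 3.6e-08) and GSK215 (-0.16, adjusted p = 0.000242). With GSK215, library totals alone gave 1 elongin gene higher and 0 lower. With PROTAC FAK degrader 1, *Vhl* thus rose while *Eloc* fell. Among 10 other CUL2 substrate receptors tested, 3 rose and 3 fell with PROTAC FAK degrader 1, a share near the 66.8% of all tested genes, led by *Zyg11b* (48.8 to 103 CPM, log2 fold change 1.08, adjusted p = 6.9e-23) and *Zer1* (21.7 to 45.3 CPM, log2 fold change 1.06, adjusted p = 1.6e-19), receptors that recognize N-terminal glycine, while *Fem1a* was lower (-0.42, adjusted p = 1.28e-12). With GSK215, 1 rose and 7 fell (54.7% of all genes changed), a split that became 3 and 2 on library totals alone. With BSJ-04-0146, 3 rose and 4 fell (54.6% of all genes), *Zer1* again being higher (log2 fold change 0.70, adjusted p = 4.49e-13) and *Fem1b* lower (-0.45, adjusted p = 1.02e-11). The median log2 fold change of these receptors was -0.04 with PROTAC FAK degrader 1, -0.14 with GSK215 and -0.07 with BSJ-04-0146, beside 0.005, 0.021 and 0.018 over all tested genes.

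*Crbn* encodes cereblon, the receptor through which thalidomide-type drugs act. It was expressed at 30.3, 29.7 and 29.7 CPM in the DMSO libraries and at 47.8, 46.4 and 45.3 CPM with PROTAC FAK degrader 1, with no overlap between this group and any other. The increase was 55.3% (log2 fold change 0.64 ± 0.060, adjusted p = 4.8e-12). The other PROTACs spanned the DMSO values, with 31.8, 31.7 and 27.4 CPM for GSK215 (difference 0.01, 95% CI -0.12 to 0.14) and 35.4, 30.5 and 28.8 CPM for BSJ-04-0146 (difference 0.08, 95% CI -0.06 to 0.21). Defactinib gave lower values, 26.6, 26.2 and 25.7 CPM, all below DMSO (log2 fold change -0.19 ± 0.064, adjusted p = 0.024), and this call was lost without DMSO replicate 1 or 2 or defactinib replicate 2 or 3, with adjusted p from 0.0504 to 0.0773. GSK2256098, at 28.9, 26.6 and 24.7 CPM, also lay below DMSO without passing the threshold (log2 fold change -0.16 ± 0.064, adjusted p = 0.0887), and passed it in a fit of only the 6 libraries compared (-0.17, adjusted p = 0.0392). On library totals alone *Crbn* was also called higher with VS-4718 (0.16, adjusted p = 0.0324) and BSJ-04-0146 (0.18, adjusted p = 0.0144).

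*Ddb1*, the adaptor of the cereblon ligase, changed by small steps on a high and tightly measured level. Its DMSO libraries held 1324, 1307 and 1299.5 CPM, against 1145, 1138 and 1167 CPM with GSK215, 1206, 1200.1 and 1195 CPM with BSJ-04-0146 and 1234, 1215 and 1191 CPM with PROTAC FAK degrader 1. All 9 PROTAC libraries lay below all 15 other libraries. The decreases were 12.2% with GSK215 (log2 fold change -0.19 ± 0.027, adjusted p = 1.15e-07), 8.38% with BSJ-04-0146 (log2 fold change -0.13 ± 0.027, adjusted p = 9.68e-05) and 7.38% with PROTAC FAK degrader 1 (log2 fold change -0.11 ± 0.027, adjusted p = 0.000371). The calls for BSJ-04-0146 (-0.02, adjusted p = 0.569) and PROTAC FAK degrader 1 (-0.03, adjusted p = 0.317) were lost on library totals alone, so that for *Ddb1* only the decrease with GSK215 passed the test under that scaling, at a smaller size (-0.07, adjusted p = 0.0224). VS-4718 gave 1379, 1376 and 1378 CPM (log2 fold change 0.07 ± 0.027, adjusted p = 0.0275), an increase that lost its call whichever single replicate was left out, with adjusted p from 0.0547 to 0.171. The call was also lost with no filter (adjusted p = 0.18), with libraries thinned to one depth (0.0522) and with only the 6 libraries compared (0.0534), while library totals alone gave 0.11.

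The scaffold genes *Cul4a* and *Cul4b*, which are close paralogs, moved in opposite directions with PROTAC FAK degrader 1. *Cul4a* rose from 147, 152 and 144 CPM to 179, 184 and 180.0 CPM, or by 22.1% (log2 fold change 0.29 ± 0.034, adjusted p = 8.81e-10). *Cul4b* fell from 96.9, 98.8 and 97.9 CPM to 64.7, 71.8 and 63.4 CPM, or by 32.0% (log2 fold change -0.56 ± 0.045, adjusted p = 5.84e-14). For each gene the 3 treated libraries lay beyond all 21 other libraries. VS-4718 also raised *Cul4a*, to 162, 158 and 162 CPM (log2 fold change 0.12 ± 0.033, adjusted p = 0.00466), a call lost without DMSO replicate 3 (0.09, adjusted p = 0.0733). GSK215 gave 142, 138 and 137 CPM (log2 fold change -0.09 ± 0.035, adjusted p = 0.0252), and here the direction turned on library totals alone (0.03, adjusted p = 0.446) and the call was lost with libraries thinned to one depth (-0.08, adjusted p = 0.0741). It was also lost without replicate 2 of DMSO or replicate 2 or 3 of GSK215 (adjusted p of 0.151, 0.07 and 0.0855). BSJ-04-0146, at 156, 145 and 142 CPM, did not pass the test (-0.01 ± 0.034, adjusted p = 0.904) but was called higher on library totals alone (0.10, adjusted p = 0.0106). *Cul4b* was lower with the remaining PROTACs, at 85.4, 79.2 and 85.7 CPM with BSJ-04-0146 (log2 fold change -0.23 ± 0.045, adjusted p = 2.69e-05, and -0.12, adjusted p = 0.0221 on library totals alone) and 90.6, 86.8 and 82.0 CPM with GSK215 (log2 fold change -0.18 ± 0.044, adjusted p = 0.00059, but -0.06, adjusted p = 0.274 on library totals alone), and with GSK2256098, at 81.8, 87.0 and 88.9 CPM (log2 fold change -0.19 ± 0.043, adjusted p = 0.0024).

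As a share of *Cul4a* plus *Cul4b* expression per length, *Cul4b* made up 52.1%, 51.7% and 52.9% in the DMSO libraries and 37.4%, 39.3% and 36.8% with PROTAC FAK degrader 1, the lowest shares of the series. With the longest transcript as gene length the mean share was 42.4% with DMSO and 29.0% with PROTAC FAK degrader 1, so which paralog was the more abundant in DMSO depended on the length used, while the differences in the log2 ratio do not. The difference in the log2 ratio of *Cul4b* to *Cul4a* was -0.85 with PROTAC FAK degrader 1, -0.23 with BSJ-04-0146, -0.17 with VS-4718 and with GSK2256098, -0.10 with IN10018 and -0.09 with GSK215, in each case with p = 0.1 by a two-sided exact permutation test (n = 3 per group), the smallest p that 3 libraries against 3 allow. Defactinib gave a mean share of 52.3% (exact p = 1). A ratio of genes within a library does not depend on how libraries are scaled.

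**Figure D3:**
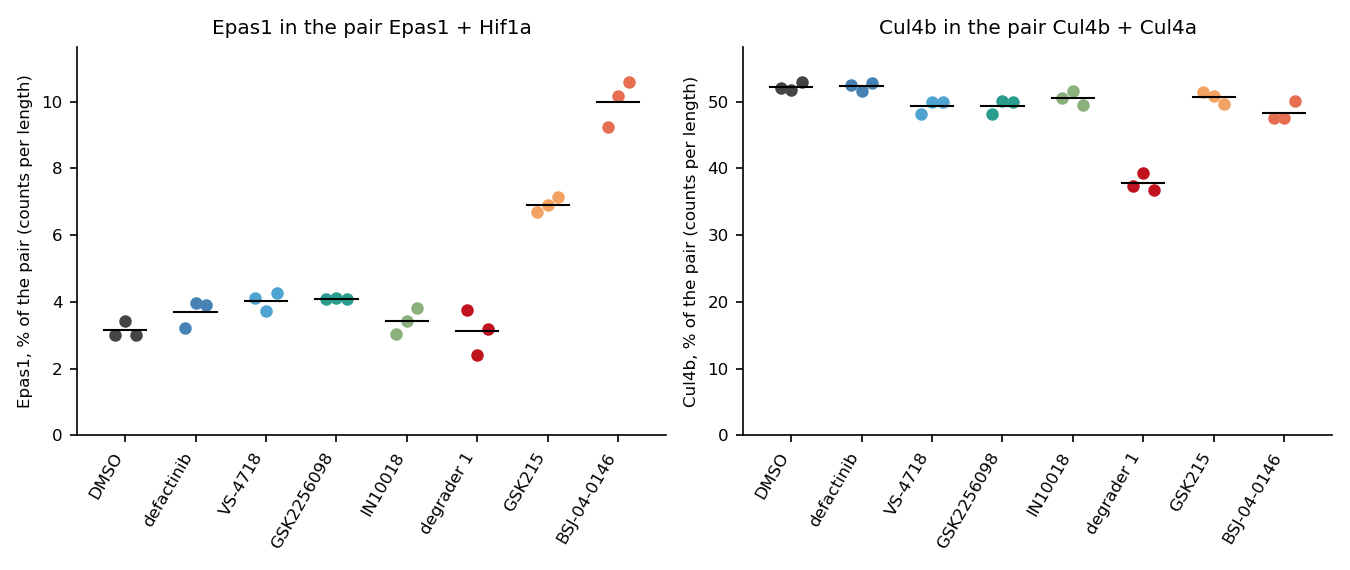
Share of *Cul4b* in *Cul4a* plus *Cul4b* expression per length and share of *Epas1* in *Epas1* plus *Hif1a* expression per length, in percent on axes from 0, by treatment; points are libraries and horizontal lines group means. The *Cul4b* share is lowest with PROTAC FAK degrader 1 (mean 37.8%, DMSO 52.2%) and the *Epas1* share is highest with BSJ-04-0146 (mean 9.99%, DMSO 3.15%).

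Beyond these members, 20 genes of other CUL4 substrate receptors and DDA1 were tested, and 17, 14 and 14 of them passed the test with PROTAC FAK degrader 1, GSK215 and BSJ-04-0146, where 66.8%, 54.7% and 54.6% of all tested genes did. With PROTAC FAK degrader 1, 12 rose and 5 fell, led by *Wdtc1* (log2 fold change 0.99, adjusted p = 5.85e-22), *Dcaf6* (log2 fold change 0.87, adjusted p = 1.42e-18) and *Ddb2*, the DNA damage receptor (log2 fold change 0.75, adjusted p = 7.02e-08). GSK215 raised 6 and lowered 8, with *Ddb2* highest (log2 fold change 1.06, adjusted p = 2.47e-11), *Dcaf6* next in size (0.37, adjusted p = 8.62e-08) and *Dcaf1* lowest (-0.36, adjusted p = 1.23e-10). BSJ-04-0146 raised 8 and lowered 6, again with *Ddb2* (0.88, adjusted p = 4.54e-09) and *Dcaf6* (0.61, adjusted p = 4.34e-13), and with *Wdtc1* (0.50, adjusted p = 6.16e-12), among the higher ones. The split with GSK215 turned on library totals alone to 9 higher and 7 lower, and that with BSJ-04-0146 was 9 and 4. VS-4718 raised 7 and lowered 6 (39.2% of all genes changed), defactinib changed 4 (22.4%), GSK2256098 changed 2 (12.5%) and IN10018 changed 2 (13.3%). Of 7 genes for known cereblon substrates, some bound only with a drug ligand, *Ikzf1* and *Ikzf3* had at most 2 counts in any library, so nothing can be said of their change. Of the remaining 5, PROTAC FAK degrader 1 raised 2 and lowered 2, with the translation termination factor gene *Gspt1* at -0.70 (adjusted p = 2e-22) and the casein kinase gene *Csnk1a1* at 0.25 (adjusted p = 3.34e-10), and with *Zfp91* at -0.18 (adjusted p = 8.08e-06). All 5 were lower with GSK215, though only 2 on library totals alone, and all 5 with BSJ-04-0146. These are RNA levels, and loss of a protein to a ligase would not appear in them.

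Cullins work only after NEDD8 is attached to them, and the COP9 signalosome takes it off again. Of 24 genes of the NEDD8 cycle, the CAND exchange factors and the signalosome, PROTAC FAK degrader 1 raised 7 and lowered 13, where 66.8% of all tested genes changed. The signalosome subunit gene *Gps1* fell the furthest (229 to 131 CPM, log2 fold change -0.81, adjusted p = 5.45e-24), while the NEDD8 ligase genes *Dcun1d3* (0.81, adjusted p = 2.12e-11) and *Dcun1d2* (-0.73, adjusted p = 8.08e-14) moved apart. GSK215 raised 2 and lowered 16 (54.7% of all genes), a split that shrank to 4 and 8 on library totals alone, with the NEDD8 ligase gene *Dcun1d5* at -0.38 (adjusted p = 5.54e-09), *Cops2* at -0.36 (adjusted p = 3.96e-10) and *Cops4* at -0.32 (adjusted p = 8.99e-09). BSJ-04-0146 raised 5 and lowered 14 (54.6% of all genes), with *Cops9* at 0.43 (adjusted p = 2.69e-06) and *Gps1* at -0.36 (adjusted p = 6.23e-13). VS-4718 raised 4 and lowered 10 (39.2% of all genes) and defactinib lowered 7 (22.4%). GSK2256098 raised 2 and lowered 4 (12.5%), whereas IN10018 raised 3 and lowered 1 (13.3%). Scaled by library totals alone, the higher and lower counts were 9 and 11 with PROTAC FAK degrader 1, 5 and 10 with BSJ-04-0146, 5 and 7 with VS-4718 and 0 and 5 with defactinib. Of 7 genes for ubiquitin-conjugating enzymes of cullin ligases and ARIH1, PROTAC FAK degrader 1 lowered 4 and raised 2, and *Cdc34* was lower with that PROTAC (-0.63, adjusted p = 6.64e-12) and with GSK215 (-0.56, adjusted p = 2.84e-10). Of 8 genes of other cullins with their RING and adaptor proteins, 1 rose and 3 fell with PROTAC FAK degrader 1 (3 and 3 on library totals alone), among them *Cul1* (-0.52, adjusted p = 1.69e-17) and *Skp1a* (-0.64, adjusted p = 2.41e-17), the scaffold and adaptor of the SCF ligases. In the same list GSK215 raised 2 and lowered 5 (2 and 3 on library totals alone) and BSJ-04-0146 raised 2 and lowered 3 (4 and 2).

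*Hif1a*, which encodes the broadly expressed HIF alpha subunit, was lower with 5 of the 7 drugs, PROTAC FAK degrader 1 and IN10018 being the exceptions. The DMSO libraries held 180.2, 181 and 184 CPM. With GSK215 the values were 149.6, 141 and 142 CPM, with BSJ-04-0146 159, 145 and 148 CPM and with VS-4718 155, 151 and 161 CPM. These 9 libraries lay below all 15 others. *Hif1a* fell by 20.7% with GSK215 (log2 fold change -0.33 ± 0.036, adjusted p = 2.86e-10), 17.0% with BSJ-04-0146 (log2 fold change -0.27 ± 0.036, adjusted p = 3.83e-08) and 14.3% with VS-4718 (log2 fold change -0.22 ± 0.035, adjusted p = 2.31e-06). On library totals alone the values for GSK215 (-0.21, adjusted p = 6.74e-06) and BSJ-04-0146 (-0.16, adjusted p = 0.00033) were closer to 0. Smaller decreases with defactinib (log2 fold change -0.10 ± 0.035, adjusted p = 0.0409) and GSK2256098 (log2 fold change -0.12 ± 0.035, adjusted p = 0.0216) did not hold on library totals alone (-0.08, adjusted p = 0.118, and -0.10, adjusted p = 0.0501) and were lost in fits without 1 replicate. For defactinib this was so in each but the fit without defactinib replicate 1 (adjusted p from 0.0637 to 0.15). For GSK2256098 it was so when replicate 2 or 3 of DMSO, or its own replicate 3, was left out (adjusted p from 0.0521 to 0.119). PROTAC FAK degrader 1, at 173, 183 and 179 CPM, differed from DMSO by -0.03 (95% CI -0.10 to 0.05), and IN10018 by -0.05 (95% CI -0.12 to 0.02).

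*Epas1*, which encodes HIF-2alpha and is best known from endothelial cells, had the widest range of the 10, 2.93-fold between group means, at 82 to 287 counts per library. Its DMSO libraries held 5.29, 6.09 and 5.40 CPM. The GSK215 libraries held 10.2, 9.88 and 10.4 CPM and the BSJ-04-0146 libraries 15.3, 15.6 and 16.6 CPM. These groups overlapped neither each other nor any other group, and *Epas1* was 80.7% higher with GSK215 (log2 fold change 0.85 ± 0.11, adjusted p = 9.79e-09) and 182% higher with BSJ-04-0146 (log2 fold change 1.49 ± 0.10, adjusted p = 6.64e-16). On the log2(CPM + 4) scale, which shrinks the change of a gene at this level, the GSK215 difference was 0.56. PROTAC FAK degrader 1, at 6.39, 4.28 and 5.57 CPM, gave no detectable difference (difference -0.04, 95% CI -0.28 to 0.19), and no kinase inhibitor passed the test, although all 3 GSK2256098 libraries (6.88, 6.89 and 6.55 CPM, adjusted p = 0.107) lay above DMSO. The endothelial markers were under 1 CPM in every group, whereas the SC marker sum was highest in the same PROTAC groups.

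Per length, *Epas1* made up 3.00%, 3.43% and 3.01% of *Epas1* plus *Hif1a* in the DMSO libraries, 6.69%, 6.89% and 7.15% with GSK215 and 9.24%, 10.2% and 10.6% with BSJ-04-0146. The log2 ratio rose by 1.20 and 1.77, with no overlap between either group and DMSO (two-sided exact permutation p = 0.1 for each, the smallest possible, n = 3 per group). The ratio was also higher by 0.37 with VS-4718 and 0.40 with GSK2256098 (exact p = 0.1 each), and differed by 0.23 with defactinib (exact p = 0.2), 0.12 with IN10018 (exact p = 0.3) and -0.04 with PROTAC FAK degrader 1 (exact p = 0.9). Of this pair, *Hif1a* was the more abundant RNA in every library.

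*Arnt*, the shared partner of the HIF alpha subunits, passed the test with a single drug. It was expressed at 77.0, 78.5 and 77.0 CPM with DMSO and at 147, 149.8 and 151 CPM with PROTAC FAK degrader 1. The highest library of any other group was 84.3 CPM, so the increase of 92.6% (log2 fold change 0.95 ± 0.036, adjusted p = 3.21e-24) was far outside the replicate spread. For the other 6 drugs, estimates ran from -0.05 to 0.07 and none passed the threshold, although on library totals alone GSK215 (0.19, adjusted p = 0.000125) and BSJ-04-0146 (0.16, adjusted p = 0.000596) did.

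Promoter windows were read from RefSeq on GRCm38.p6, each taking the 250 bases before a gene's start. Windows of 8 of the 10 genes were used, since *Epas1* had no entry and *Cul2* was left out. Printed here are the windows of *Crbn*, *Cul4b* and *Arnt*, the members that PROTAC FAK degrader 1 changed most, with *Cul4a* as the paralog that moved against *Cul4b*, and *Hif1a*. They lie at chr6:106800088-106800337 (minus strand), chrX:38576197-38576446 (minus strand), chr3:95434140-95434389 (plus strand) and chr12:73907617-73907866 (plus strand), and for *Cul4a* at chr8:13105373-13105622 (plus strand). The *Cul4a* and *Arnt* windows overlap GENCODE exons by 2 bases each and the other printed windows by 0, and the *Hif1a* window lies inside the longer GENCODE gene. Sequences run 5′ to 3′ on the gene's strand, and capitals mark ACGTG, one form of the core of the hypoxia response element, on either strand. The form GCGTG was not searched for and is not marked, and it occurs in the windows of *Crbn*, *Arnt* and *Rbx1*.
Crbn: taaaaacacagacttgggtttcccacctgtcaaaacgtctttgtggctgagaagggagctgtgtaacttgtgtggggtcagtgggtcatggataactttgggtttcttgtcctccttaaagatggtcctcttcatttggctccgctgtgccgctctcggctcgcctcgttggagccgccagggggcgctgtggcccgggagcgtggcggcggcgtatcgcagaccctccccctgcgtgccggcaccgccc
Cul4b: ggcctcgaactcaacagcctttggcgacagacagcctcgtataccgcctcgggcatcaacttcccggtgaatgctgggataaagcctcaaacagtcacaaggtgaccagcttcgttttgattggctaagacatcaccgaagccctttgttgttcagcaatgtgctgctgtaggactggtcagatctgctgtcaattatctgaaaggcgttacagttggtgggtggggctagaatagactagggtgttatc
Arnt: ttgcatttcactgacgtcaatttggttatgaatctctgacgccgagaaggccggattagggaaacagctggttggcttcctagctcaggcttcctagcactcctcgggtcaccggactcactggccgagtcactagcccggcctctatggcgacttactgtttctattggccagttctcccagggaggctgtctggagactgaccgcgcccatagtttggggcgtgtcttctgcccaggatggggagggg
Cul4a: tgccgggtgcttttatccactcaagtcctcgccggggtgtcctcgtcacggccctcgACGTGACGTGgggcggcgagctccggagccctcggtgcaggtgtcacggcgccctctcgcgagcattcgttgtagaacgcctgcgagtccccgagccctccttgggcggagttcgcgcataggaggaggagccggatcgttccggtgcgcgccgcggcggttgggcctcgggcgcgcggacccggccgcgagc
Hif1a: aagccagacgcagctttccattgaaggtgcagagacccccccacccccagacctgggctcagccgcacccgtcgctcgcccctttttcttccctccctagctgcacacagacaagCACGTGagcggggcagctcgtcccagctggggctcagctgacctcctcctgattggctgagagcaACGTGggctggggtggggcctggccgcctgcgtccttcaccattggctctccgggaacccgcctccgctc
The windows of *Crbn*, *Cul4b* and *Arnt* hold no ACGTG, nor do those of *Vhl* and *Rbx1*, so 5 of 8 windows are without it. *Cul4a* has 2 matches, whose first bases lie 193 and 188 bases before the start, *Ddb1* has 1 at 21 bases before the RefSeq start, in a window whose 250 bases all lie in GENCODE exons, and *Hif1a* has matches at 134 and 70 bases on the given strand and 1 on the other strand that overlaps the first. Of all 32851 windows of this length in the table, 16.6% hold the motif on at least 1 strand. A match describes letters and is not a measured binding site, and a window without one says only that these letters are not in it. GC content was 60.4% for *Crbn*, 50.8% for *Cul4b*, 57.2% for *Arnt*, 71.6% for *Cul4a* and 66.4% for *Hif1a*.

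Other genes of the HIF pathway were taken from lists. Of the enzymes that hydroxylate HIF alpha, *Egln1*, the main prolyl hydroxylase in normal oxygen and itself a HIF target, rose with IN10018 (114 to 156 CPM, log2 fold change 0.45, adjusted p = 1.81e-12) and PROTAC FAK degrader 1 (log2 fold change 0.43, adjusted p = 5.16e-14) and fell with GSK215 (log2 fold change -0.59, adjusted p = 1.04e-16), BSJ-04-0146 (-0.45, adjusted p = 2.41e-13), VS-4718 (-0.26, adjusted p = 1.54e-07) and defactinib (-0.12, adjusted p = 0.0121). *Egln3*, another hypoxia-inducible member, rose with IN10018 (0.38, adjusted p = 2.21e-07) and PROTAC FAK degrader 1 (0.36, adjusted p = 1.34e-08) and fell with GSK215 (-0.33, adjusted p = 6.04e-07), VS-4718 (-0.29, adjusted p = 7.1e-06), defactinib (-0.16, adjusted p = 0.0137) and GSK2256098 (-0.16, adjusted p = 0.0217). *Egln2* was instead higher with BSJ-04-0146 (0.52, adjusted p = 1.18e-10), GSK215 (0.27, adjusted p = 5.61e-05), VS-4718 (0.27, adjusted p = 5.86e-05) and GSK2256098 (0.17, adjusted p = 0.0314). *Hif1an*, whose product hydroxylates an asparagine of HIF alpha, moved by 0.13 with VS-4718 and -0.13 with GSK215. *Cited2*, which competes with HIF alpha for the coactivators p300 and CBP, rose with PROTAC FAK degrader 1 (0.33, adjusted p = 2.3e-10) and VS-4718 (0.27, adjusted p = 6.91e-08) and fell with GSK215 (-0.42, adjusted p = 3.68e-12), BSJ-04-0146 (-0.39, adjusted p = 2.08e-11) and defactinib (-0.30, adjusted p = 8.54e-08). The p300 gene *Ep300* was lower with PROTAC FAK degrader 1 (-0.16, adjusted p = 0.000424) and IN10018 (-0.13, adjusted p = 0.0202) and higher with GSK215 (0.13, adjusted p = 0.00563), VS-4718 (0.12, adjusted p = 0.00773) and defactinib (0.11, adjusted p = 0.0364). The CBP gene *Crebbp* was lower with PROTAC FAK degrader 1 (-0.19, adjusted p = 0.018) and higher with GSK215 (0.17, adjusted p = 0.035) and VS-4718 (0.20, adjusted p = 0.0158), and *Cited4* had at most 1 count in any library. On library totals alone PROTAC FAK degrader 1 lowered none of these coactivator and CITED genes, and GSK215 lowered 2 of the 4 hydroxylase genes rather than 3. Of all tested genes, 54.7% were called with that drug (8786 genes, and 9057 on library totals alone). Of 13 other genes of the bHLH-PAS family, to which ARNT and the HIF alpha subunits belong, 8 were tested, and PROTAC FAK degrader 1 raised 5 and lowered 2, where 66.8% of all tested genes changed, including the ARNT paralog *Arntl* of the circadian clock (log2 fold change 0.98, adjusted p = 8.06e-17) and *Clock* (-0.42, adjusted p = 8.33e-10). The aryl hydrocarbon receptor gene *Ahr*, whose product also pairs with ARNT, was higher with all 3 PROTACs (0.56, 0.60 and 0.66 for PROTAC FAK degrader 1, GSK215 and BSJ-04-0146).

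The list of 19 HIF target genes moved largely in one direction within a drug, and in opposite directions between drugs. With PROTAC FAK degrader 1, 14 rose and 2 fell, with a median log2 fold change of 0.69, and with IN10018, 18 rose and none fell, with a median of 0.49. Under GSK215, 2 rose and 17 fell (median -0.84), under BSJ-04-0146, 1 rose and 17 fell (median -0.77), and under VS-4718, 16 fell and none rose (median -0.65). GSK2256098 lowered 15 by less (median -0.21), and defactinib lowered 8 and raised 1 (median -0.10). The share of all tested genes called in either direction was 66.8% with PROTAC FAK degrader 1, 13.3% with IN10018, 54.7% with GSK215, 54.6% with BSJ-04-0146, 39.2% with VS-4718, 12.5% with GSK2256098 and 22.4% with defactinib. The median over all tested genes lay between -0.004 and 0.021 for the 7 drugs. The list was chosen with earlier results of these data known, so its direction is a description. Single genes moved further than any of the 10 members. *Ndrg1*, a standard hypoxia marker, rose with PROTAC FAK degrader 1 (65.8 to 380.0 CPM, log2 fold change 2.53, adjusted p = 4.92e-37), as did *Ero1l* for the endoplasmic reticulum oxidase (323 to 1113 CPM, log2 fold change 1.79, adjusted p = 7.98e-34) and the mTORC1 inhibitor gene *Ddit4* (152 to 508 CPM, log2 fold change 1.75, adjusted p = 1.02e-30). *Ddit4* fell with VS-4718 (log2 fold change -2.11, adjusted p = 2.39e-29) and GSK215 (log2 fold change -1.75, adjusted p = 1.32e-27), as did the mitophagy gene *Bnip3* with VS-4718 (-1.30, adjusted p = 2.37e-25) and BSJ-04-0146 (-1.48, adjusted p = 6.11e-27). *Ankrd37* fell with GSK215 (-1.55, adjusted p = 3.48e-13), BSJ-04-0146 (-1.63, adjusted p = 1.52e-13) and VS-4718 (-1.24, adjusted p = 1.88e-11), and the adrenomedullin gene *Adm* with GSK215 (-1.58, adjusted p = 5.83e-20) and BSJ-04-0146 (-1.57, adjusted p = 7.53e-20). With IN10018 the widest increases were those of *Ndrg1* (0.93, adjusted p = 2.15e-20), *Ddit4* (0.78, adjusted p = 6.61e-17) and the carbonic anhydrase gene *Car9* (0.78, adjusted p = 8.19e-13). The list did not move as a block in the PROTAC FAK degrader 1 libraries, where *Adm* (-0.57, adjusted p = 1.12e-09) and the glycolytic regulator *Pfkfb3* (-0.43, adjusted p = 4.5e-09) fell, both named after their values were seen. For the drugs that lowered most targets by the widest margins (GSK215, BSJ-04-0146 and VS-4718), *Hif1a* and *Vhl* were both lower as well. The *Vhl* calls with BSJ-04-0146 and VS-4718 were lost on library totals alone. With PROTAC FAK degrader 1 and IN10018, *Vhl* was higher and *Hif1a* not detectably changed. Defactinib also lowered *Vhl* and *Hif1a*, while 10 of the 19 targets did not pass the test with it. Its *Hif1a* call was lost on library totals alone and in most fits without 1 replicate. GSK2256098 lowered 15 targets and *Hif1a*, a call lost in some fits above, while *Vhl* was not called (-0.06, adjusted p = 0.483).

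**Figure D4:**
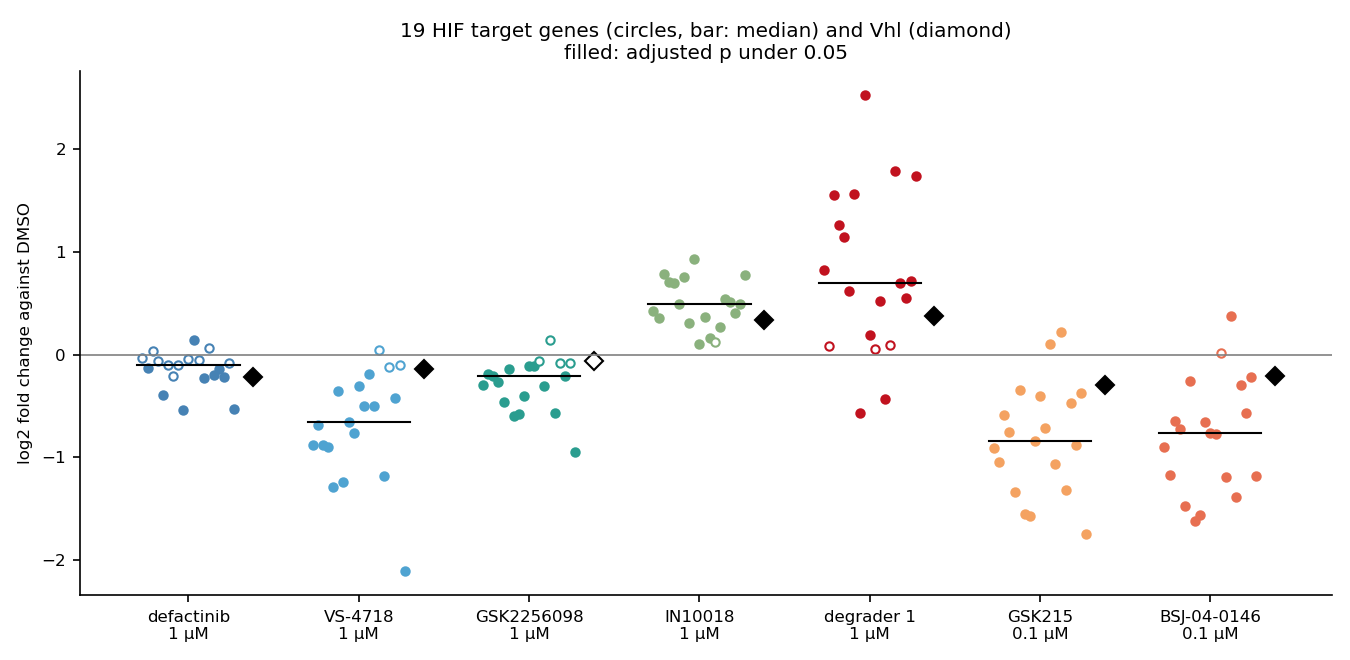
Log2 fold change against DMSO of the 19 HIF target genes for each of the 7 drugs, 1 circle per gene (filled where the adjusted p is under 0.05) and a line at the list's median, with *Vhl* as a diamond beside them. Points lie mostly above 0 for IN10018 (median 0.49) and PROTAC FAK degrader 1 (0.69), and mostly below 0 for VS-4718 (-0.65), GSK215 (-0.84) and BSJ-04-0146 (-0.77).

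Compounds were compared directly where the doses were equal. PROTAC FAK degrader 1 was set against each of the 4 kinase inhibitors at 1 µM, and GSK215 against BSJ-04-0146 at 0.1 µM, which makes 5 pairs. The 4 former pairs share the PROTAC FAK degrader 1 libraries. Against defactinib, 7 of the 10 members differed, with 68.9% of all tested genes. The numbers were 8 against VS-4718 (68.9% of all genes), 9 against GSK2256098 (67.6%) and 6 against IN10018 (63.5%). *Cul2*, *Crbn*, *Cul4a* and *Arnt* were higher and *Ddb1* and *Cul4b* lower than with each of the 4 inhibitors. *Arnt* differed by 0.88 to 1.00 on the log2 scale, *Crbn* by 0.51 to 0.83, *Cul4b* by -0.50 to -0.37 and *Cul4a* by 0.17 to 0.35, with adjusted p of at most 2.04e-05. The *Ddb1* differences were small, from -0.18 to -0.10, and those from defactinib (-0.03, adjusted p = 0.243) and GSK2256098 (-0.03, adjusted p = 0.262) were lost on library totals alone, which also brought that from IN10018 to -0.07, adjusted p = 0.0111. The *Cul2* differences of 0.13 to 0.17 included a call against defactinib that was lost without defactinib replicate 2 (0.10, adjusted p = 0.067) and one against VS-4718 that was lost without VS-4718 replicate 1 (0.10, adjusted p = 0.0572), and the one from IN10018 was 0.22 on library totals alone.

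*Vhl* passed the test against 3 of the 4 inhibitors. It was higher with PROTAC FAK degrader 1 than with defactinib (0.59 ± 0.048, adjusted p = 6.66e-14), VS-4718 (0.51 ± 0.048, adjusted p = 2.7e-12) and GSK2256098 (0.43 ± 0.048, adjusted p = 2.23e-10). Against IN10018 the difference was 0.03 (95% CI -0.06 to 0.13), while library totals alone gave 0.11, adjusted p = 0.0397. *Hif1a* was higher than with VS-4718 (0.20 ± 0.036, adjusted p = 6.97e-06) and, by less, than with GSK2256098 (0.09 ± 0.036, adjusted p = 0.0227), the latter a call lost without GSK2256098 replicate 3 (0.08, adjusted p = 0.0942) or PROTAC FAK degrader 1 replicate 2 (0.08, adjusted p = 0.0915) and larger on library totals alone (0.16). *Epas1* was lower than with GSK2256098 (-0.32 ± 0.12, adjusted p = 0.0152), a call lost with DESeq2 (-0.31, adjusted p = 0.0528), on library totals alone (-0.25, adjusted p = 0.0553) and without PROTAC FAK degrader 1 replicate 2 (-0.17, adjusted p = 0.208). *Rbx1* passed the test against none of the 4.

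Between GSK215 and BSJ-04-0146, 2 of 10 members differed, with 22.5% of all tested genes. *Epas1* was 35.9% lower with GSK215 (-0.64 ± 0.10, adjusted p = 3.2e-06) and *Rbx1* 13.7% lower (-0.21 ± 0.043, adjusted p = 0.0003), and in both genes all 3 GSK215 libraries lay below all 3 BSJ-04-0146 libraries. For the receptors the estimates were -0.09 for *Vhl* (95% CI -0.20 to 0.03) and -0.06 for *Crbn* (95% CI -0.20 to 0.07), and differences of any size within those limits remain possible. *Hif1a* differed by -0.07 (95% CI -0.14 to 0.01) and *Ddb1* by -0.06 (adjusted p = 0.0952), the latter being called with DESeq2 (-0.06, adjusted p = 0.0115). PROTAC FAK degrader 1 was used at a higher dose than the other PROTACs, so no test was made between them. Side by side, the group means at these unequal doses were 149, 81.0 and 80.5 CPM for *Arnt*, and 5.41, 10.1 and 15.8 CPM for *Epas1*, in the order PROTAC FAK degrader 1, GSK215 and BSJ-04-0146.

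**Figure D5:**
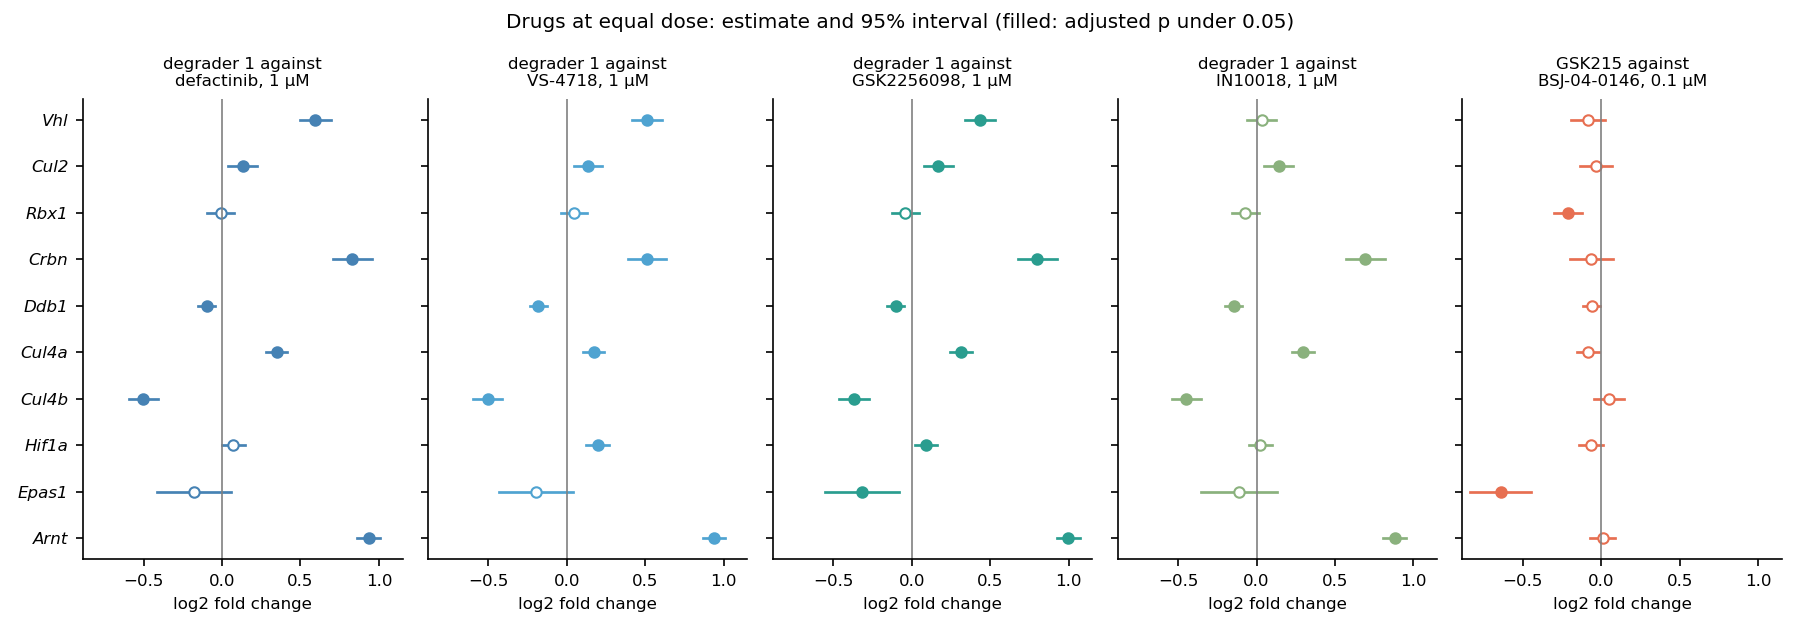
Log2 difference of each member between compounds at equal dose, with 95% confidence intervals from the edgeR fit of all 24 libraries (3 per group, filled where the adjusted p is under 0.05): PROTAC FAK degrader 1 against each of 4 kinase inhibitors (1 µM) and GSK215 against BSJ-04-0146 (0.1 µM). *Arnt* lies between 0.88 and 1.00 and *Cul4b* between -0.50 and -0.37 in the first 4 comparisons, and in the last *Epas1* lies at -0.64.

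Ordered by group mean, most neighbouring treatments were not separated, since their libraries overlapped. For *Vhl*, gaps lay between IN10018 and DMSO and between defactinib and GSK215, though 1 BSJ-04-0146 library was as low as GSK215. *Crbn*, *Cul4b* and *Cul2* each showed 1 gap, between PROTAC FAK degrader 1 and VS-4718 for *Crbn*, between BSJ-04-0146 and PROTAC FAK degrader 1 for *Cul4b*, and between GSK2256098 and BSJ-04-0146 for *Cul2*. *Epas1* had 2 gaps, from BSJ-04-0146 to GSK215 and from GSK215 to GSK2256098, and its other 6 groups formed an overlapping run. *Arnt* showed a gap below PROTAC FAK degrader 1 and a small one between DMSO and GSK2256098, the lowest group.

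By Pearson correlation of log2(CPM + 1) over the 8 group means, among 10278 genes with at least 5 CPM on average, the patterns most like that of *Vhl* were those of *Fdx1* (r = 0.986), *Gtf2e2* (r = 0.986) and *Mxi1* (r = 0.982), of which *Mxi1* is also on the list of HIF targets. For *Crbn* they were *Nub1* (r = 0.983), *Trpt1* (r = 0.98) and *Nek7* (r = 0.979), for *Hif1a* *Psmc6* (r = 0.987), *Cct2* (r = 0.986) and *Rpp40* (r = 0.985), and for *Epas1* *Lgr6* (r = 0.983), *5730559C18Rik* (r = 0.979) and *Snn* (r = 0.974). These describe 8 points that share libraries and depth, and values this high are the best of many candidates.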

How the data were processed

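RNA-seq was done on poly(A)-selected RNA of MS03 cells. The file deposited by the authors gives the raw read count of 49315 Ensembl genes in 24 libraries, not normalized. Per the labels' processing notes, which give no role or order, Trimmomatic 0.36, STAR 2.5.2b, featureCounts and Subread 1.5.2 were used with GRCm38. The annotation release and the strand setting are not given in the sources used here, so reads in overlapping exons are uncertain. The paper's methods place log2(CPM + 4) values after these counts.

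The 10 members and the gene lists were chosen with earlier results of these data known. Differences were tested with edgeR 4.0.16 under R 4.3.3 (TMM, filterByExpr, glmQLFit and glmQLFTest) in 1 model of 8 groups with 16 residual degrees of freedom. Tests were two-sided, with Benjamini-Hochberg adjustment over the 16070 genes tested and a threshold of 0.05. CPM used TMM-scaled library sizes and RPKM the union of GENCODE M21 exons. Errors after ± are SE for log2 fold changes and SD for levels. Replicate libraries differed by more than counting noise (chi-square per degree of freedom 1.74 to 8.81 over 24 pairs), so none was counted as a copy. Ratios of a gene pair were tested by exact permutation.

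All members were named. Genes of lists were named from the 3 largest changes past the threshold per drug, with at least 5 CPM on average, with fewer or none given for some drugs for room, and every gene of lists of 4 or fewer. Alternatives were DESeq2 1.42.0, library totals in place of TMM, no filter, limma 3.58.1 (trend) on log2(CPM + 4), the replicate number as a block, only the 6 libraries compared, libraries thinned to the smallest total, the longest transcript as gene length, and leaving out each replicate. List counts under DESeq2 and library totals, and levels and shares with the longest transcript as length, were added after seeing the data. The model was also run on counts simulated from its own fitted spread, which does not test its assumptions. No column was left without a sample. An item of a marker list is not reported here.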

Additional observations from a re-analysis of the deposited data

How the results depend on the processing

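Of 62 differences called among 120 (10 genes in 12 comparisons), 45 kept their direction and an adjusted p under 0.05 in every alternative run, 17 lost the call at least once and 1 of these changed sign, while 18 of the 58 not called became called at least once. The changes of *Arnt*, *Crbn*, *Cul4a* and *Cul4b* with PROTAC FAK degrader 1, of *Epas1*, *Cul2* and *Hif1a* with GSK215 and BSJ-04-0146, and of *Vhl* with defactinib, IN10018, PROTAC FAK degrader 1 and GSK215 were among those kept. Scaling by library totals mattered most, with 11 calls lost and 12 gained. DESeq2 lost 1 call and gained 1, thinning lost 2, and limma changed none. *Epas1*, at 82 to 287 counts per library, was the least precisely measured.

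On library totals alone the sign turned, to 0.032 for *Cul4a* with GSK215 (called before), and among differences not called to 0.10 for *Cul4a* with BSJ-04-0146 (then called), 0.0041 and 0.0031 for *Ddb1* with defactinib and GSK2256098, 0.056 for *Hif1a* and 0.037 for *Epas1* with PROTAC FAK degrader 1, 0.016 and 0.12 (then called) for *Rbx1* with VS-4718 and GSK215, and 0.055, 0.029 and 0.0024 for *Rbx1* with PROTAC FAK degrader 1 against defactinib, GSK2256098 and IN10018. Thinning turned *Arnt* with defactinib to -0.015 and with VS-4718 to -0.040, *Rbx1* with VS-4718 to 0.024 and *Cul4a* with BSJ-04-0146 to 0.00028, and no filter turned *Crbn* with GSK215 to -0.0024. Members called with GSK2256098 fell to 1 on library totals alone, and with IN10018 rose to 2 in a fit of 6 libraries. On library totals alone the genes that GSK215 lowered went from 7 to 2 among other CUL2 receptors, from 16 to 8 in the NEDD8 and COP9 list, and from 5 to 2 among cereblon substrates. The cause was not tested.

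Leaving out 1 replicate at a time put the number of members called between 1 and 3 with defactinib, 2 and 3 with VS-4718 and 1 and 3 with GSK2256098. All genes called fell as well, to between 2731 and 2988 of 3594 with defactinib, 5352 and 5945 of 6303 with VS-4718, and 1298 and 1622 of 2001 with GSK2256098. The differences whose sign turned without 1 replicate were not past the threshold with all replicates. Their ranges were -0.19 to 0.14 for the *Epas1* to *Hif1a* log2 ratio with PROTAC FAK degrader 1, -0.013 to 0.025 for the *Cul4b* to *Cul4a* log2 ratio with defactinib. For *Rbx1* they were -0.0012 to 0.073 with defactinib, -0.0063 to 0.059 with PROTAC FAK degrader 1, -0.037 to 0.021 with GSK215, -0.048 to 0.029 with PROTAC FAK degrader 1 against defactinib. For *Arnt* they were -0.012 to 0.029 with defactinib, -0.021 to 0.028 with VS-4718, -0.0095 to 0.044 with GSK215 against BSJ-04-0146. For *Cul4a* they were -0.029 to 0.018 with IN10018, -0.050 to 0.019 with BSJ-04-0146. For *Hif1a* they were -0.045 to 0.0021 with PROTAC FAK degrader 1. For *Epas1* they were -0.18 to 0.097 with PROTAC FAK degrader 1, -0.25 to 0.031 with PROTAC FAK degrader 1 against IN10018. For *Crbn* they were -0.028 to 0.083 with GSK215, -0.015 to 0.13 with BSJ-04-0146, -0.12 to 0.026 with GSK215 against BSJ-04-0146.

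The replicate numbers do not pair the samples, since deviations of same-numbered libraries correlated at -0.235 to 0.161 across pairs of groups (other numbers -0.246 to 0.379) and 5 of 24 libraries correlated best with their own number. With the replicate number as a block, 0 calls were lost and 1 was gained, *Crbn* with GSK2256098 (-0.17, edgeR adjusted p = 0.0412), which made 3 members called for that drug.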
